A study of Mus musculus with 20 samples.

Results

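The genes described here encode the proteasome of mouse liver: the 20S core, the 19S cap, the chaperones that assemble the cap, the immune subunits and the other activators of the core. They were chosen by symbol, as the protein-coding genes named *Psma1* to *Psma8*, *Psmb1* to *Psmb11*, *Psmc1* to *Psmc6*, *Psmd1* to *Psmd14* and *Psme1* to *Psme4*. This rule named 43 of the 54532 genes listed, and 41 of the 43 reached a CPM (read counts relative to each library's total) of 2 in 3 mice or more, as did 12289 genes in all. Of the 41, 14 belong to the core, 17 to the cap, 3 to the cap chaperones (*Psmd5*, *Psmd9*, *Psmd10*), 5 to the immune subunits (*Psmb8*, *Psmb9*, *Psmb10*, *Psme1*, *Psme2*) and 2 to the other activators (*Psme3*, *Psme4*). The 2 genes that did not pass were *Psmb11*, the thymus form of a core subunit, with 0 counts in all 20 mice, and *Psma8*, the testis form of another, which reached a CPM of 2 in 2 of 20 mice and ran from 0.307 to 2.70. The member that passed at the lowest level, *Psmd10*, ran from 7.15 to 11.8 CPM.

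Liver RNA of 20 male C57BL/6 mice was sequenced, 5 in each of 4 groups, with 1 library per mouse, from mice drawn at random out of a larger cohort. All mice, the controls included, were first made obese by 12 weeks of high-fat diet (HFD). They then had Roux-en-Y gastric bypass (RYGB), an operation that leads food past most of the stomach and the upper intestine, or a sham operation, and were kept for 8 weeks on chow or on HFD. The groups are named by operation and later diet, as Sham Chow and Sham HFD after the sham operation and as RYGB Chow and RYGB HFD after bypass. Sham Chow is therefore a group of previously obese mice returned to chow, and no group was lean throughout. The study reports higher body weights in Sham HFD than in all other groups and calls this a confounding variable. The part of body weight in the contrasts with Sham HFD was not tested. Values per mouse are listed in the order of replicates 1 to 5, which are names of mice and no sequence. A contrast is written with its reference first, so that a negative log2 fold change in Sham Chow vs. Sham HFD is a lower level in Sham HFD.

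The proteasome degrades proteins that carry chains of ubiquitin. Its 20S core is a barrel of stacked rings: the alpha subunits (*Psma* genes) form the outer rings and gate the entrance, and the beta subunits (*Psmb* genes) form the inner rings, where *Psmb5*, *Psmb6* and *Psmb7* carry the cutting sites. The 19S cap binds and unfolds the substrate, with a ring of ATPases (*Psmc* genes) that pulls it into the core and non-ATPase subunits (*Psmd* genes) that bind ubiquitin or, in the case of *Psmd14*, cut it off. Interferon induces *Psmb8*, *Psmb9* and *Psmb10*, which take the places of *Psmb5*, *Psmb6* and *Psmb7* in newly built cores and favour the production of peptides for MHC class I, as well as *Psme1* and *Psme2*, which together form the activator PA28. Leukocytes hold the immune form without stimulation, whereas hepatocytes, which make up most of the liver, mainly hold the constitutive form.

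Total counts ran from 14604854 to 22537498 per mouse. The 9 hepatocyte marker genes found summed to between 85304 and 129092 CPM. T and NK cell markers summed to between 2.40 and 16.4 CPM, and B cell, Kupffer cell and endothelial markers were present in every mouse. Bulk RNA cannot tell fewer cells of a type from less RNA per cell. Of the 41 genes, 38 had their highest value of the RYGB Chow group in RYGB Chow replicate 5, where 27.6% of all tested genes did. In that mouse *Igtp*, an interferon-induced GTPase, was at 208 CPM against 21.3 to 43.7 in the other 4 mice of the group, and 17 of 20 listed interferon and antigen presentation genes had the highest value of the group. The T and NK cell markers summed to 16.4 CPM in it and to at most 4.18 in the others, and the B cell markers to 193 against at most 107. Its endothelial markers were the lowest of the group, at 97.5 CPM against 219.5 to 353, and its leukocyte markers, at 170.9 CPM, lay within the group's range of 139 to 236. Counts, medians and differences in which this mouse weighed are therefore in many cases also given without it. The part of these markers in the results was not tested.

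Promoters in RefSeq (GRCm38.p6, 250 bases before to 50 after a start) were found for 35 of the 41 genes. They were searched on both strands for TGACNNNGC, the core of the antioxidant response element (ARE) that Nfe2l1 and Nfe2l2 bind, for CCAAT, for TTCNNNGAA, the gamma-interferon activated site, and for GAAANNGAA, a core of the interferon response element. A match to TGACNNNGC was present in 6 of 35 genes (17.1%) against 16.8% of the tested genes with a promoter, to CCAAT in 13 (37.1%) against 43%, to TTCNNNGAA in 2 (5.71%) against 8.41% and to GAAANNGAA in 6 (17.1%) against 8.84%. A match is a description of letters in these windows and not a binding site. The promoters of *Psmb5* and *Psmb6*, cutting subunits of the core, hold 1 TGACNNNGC match each and that of *Psmb8*, which takes the place of *Psmb5*, holds 1 TTCNNNGAA match; they are shown on the strand of the gene with these matches in capitals, for *Psmb5* (chr14:54617946-54618245, minus strand), *Psmb6* (chr11:70525107-70525406, plus strand) and *Psmb8* (chr17:34197945-34198244, plus strand).
Psmb5: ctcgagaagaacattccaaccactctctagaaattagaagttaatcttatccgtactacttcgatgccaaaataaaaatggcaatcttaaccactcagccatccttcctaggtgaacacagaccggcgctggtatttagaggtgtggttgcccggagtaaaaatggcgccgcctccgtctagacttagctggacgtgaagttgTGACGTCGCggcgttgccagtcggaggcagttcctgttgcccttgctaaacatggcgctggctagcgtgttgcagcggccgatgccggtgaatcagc
Psmb6: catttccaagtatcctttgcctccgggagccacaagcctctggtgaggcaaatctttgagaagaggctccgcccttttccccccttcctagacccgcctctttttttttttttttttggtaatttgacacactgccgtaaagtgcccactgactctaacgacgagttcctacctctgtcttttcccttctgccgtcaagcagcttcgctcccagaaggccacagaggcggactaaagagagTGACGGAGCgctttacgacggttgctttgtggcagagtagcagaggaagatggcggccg
Psmb8: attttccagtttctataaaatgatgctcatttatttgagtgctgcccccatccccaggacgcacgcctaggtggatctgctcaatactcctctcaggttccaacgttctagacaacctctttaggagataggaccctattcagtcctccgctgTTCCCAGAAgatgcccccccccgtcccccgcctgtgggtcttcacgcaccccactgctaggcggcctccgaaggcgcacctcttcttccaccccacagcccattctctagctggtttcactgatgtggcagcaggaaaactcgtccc
The matches begin 47 bases before the RefSeq start of *Psmb5*, 9 before that of *Psmb6* and 97 before that of *Psmb8*. No window of the 5 immune subunits held TGACNNNGC, against 4 of 25 core and cap genes and 16.8% of the tested genes with a promoter. TTCNNNGAA was present in 1 of 5 immune subunits and 1 of 25 core and cap genes, and GAAANNGAA in 1 of 5 and 4 of 25. For *Psmb7*, the other cutting subunit, no promoter was found.

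Levels of different genes are compared as CPM per kilobase of annotated exon, given here as mean ± SD of the 5 Sham Chow mice. In the alpha ring, they were *Psma6* 75.6 ± 7.22, *Psma4* 46.99 ± 2.89, *Psma5* 39.7 ± 3.71, *Psma7* 32.1 ± 3.94, *Psma1* 31.9 ± 1.87, *Psma3* 23.5 ± 1.99 and *Psma2* 20.4 ± 0.852. In the beta ring, they were *Psmb5* 83.5 ± 8.98, *Psmb4* 66.8 ± 5.06, *Psmb6* 55.6 ± 4.31, *Psmb2* 42.9 ± 2.77, *Psmb3* 32.7 ± 2.48, *Psmb1* 28.01 ± 2.20 and *Psmb7* 22.96 ± 2.08. The core genes thus ran from 20.4 (*Psma2*) to 83.5 (*Psmb5*) CPM per kilobase, but in CPM both stood alike, at 75.05 and 75.09. Their gap per kilobase comes from annotated exon lengths of 3673 and 899 bases. These lengths count the exons of all annotated isoforms, so levels per kilobase are uncertain between genes. Among the ATPases, the levels per kilobase were *Psmc1* 56.9 ± 2.79, *Psmc5* 46.8 ± 4.92, *Psmc3* 40.7 ± 1.44, *Psmc4* 35.4 ± 3.12, *Psmc6* 28.02 ± 0.920 and *Psmc2* 16.5 ± 1.54. The non-ATPase subunits of the cap were at *Psmd2* 44.6 ± 2.77, *Psmd4* 36.2 ± 4.54, *Psmd8* 33.4 ± 2.67, *Psmd6* 29.2 ± 2.50, *Psmd7* 28.8 ± 1.58, *Psmd12* 28.3 ± 1.16, *Psmd3* 23.2 ± 0.997, *Psmd11* 17.1 ± 1.21, *Psmd13* 17.04 ± 1.27, *Psmd14* 16.5 ± 1.24 and *Psmd1* 14.9 ± 1.36 CPM per kilobase. Per kilobase the chaperones, which leave the cap once it is built, were lower, at *Psmd9* 6.79 ± 0.671, *Psmd10* 5.97 ± 0.745 and *Psmd5* 5.09 ± 0.362. In CPM, however, *Psmd9* at 49.2 lay above the cap subunit *Psmd14* at 46.5, with *Psmd5* at 36.8 and *Psmd10* at 8.765. The annotated exons of *Psmd9* and *Psmd5* cover 7248 and 7230 bases, those of *Psmd14* 2820. The immune subunits were at *Psme1* 35.2 ± 2.02, *Psme2* 21.7 ± 3.68, *Psmb10* 15.8 ± 2.03, *Psmb8* 4.84 ± 0.690 and *Psmb9* 3.95 ± 0.895, and the activators PA28 gamma and PA200 at *Psme3* 19.9 ± 1.95 and *Psme4* 16.9 ± 2.20 CPM per kilobase. Per kilobase, *Psmb8* and *Psmb9* stood at the bottom of the list with the chaperones, while *Psmb5* and *Psmb6*, whose places they take, were near the top of the core. In CPM, *Psmb8* and *Psmb9* were also lower, at 16.4 and 14.4 against 75.09 for *Psmb5* and 104 for *Psmb6*.

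**Figure D1:**
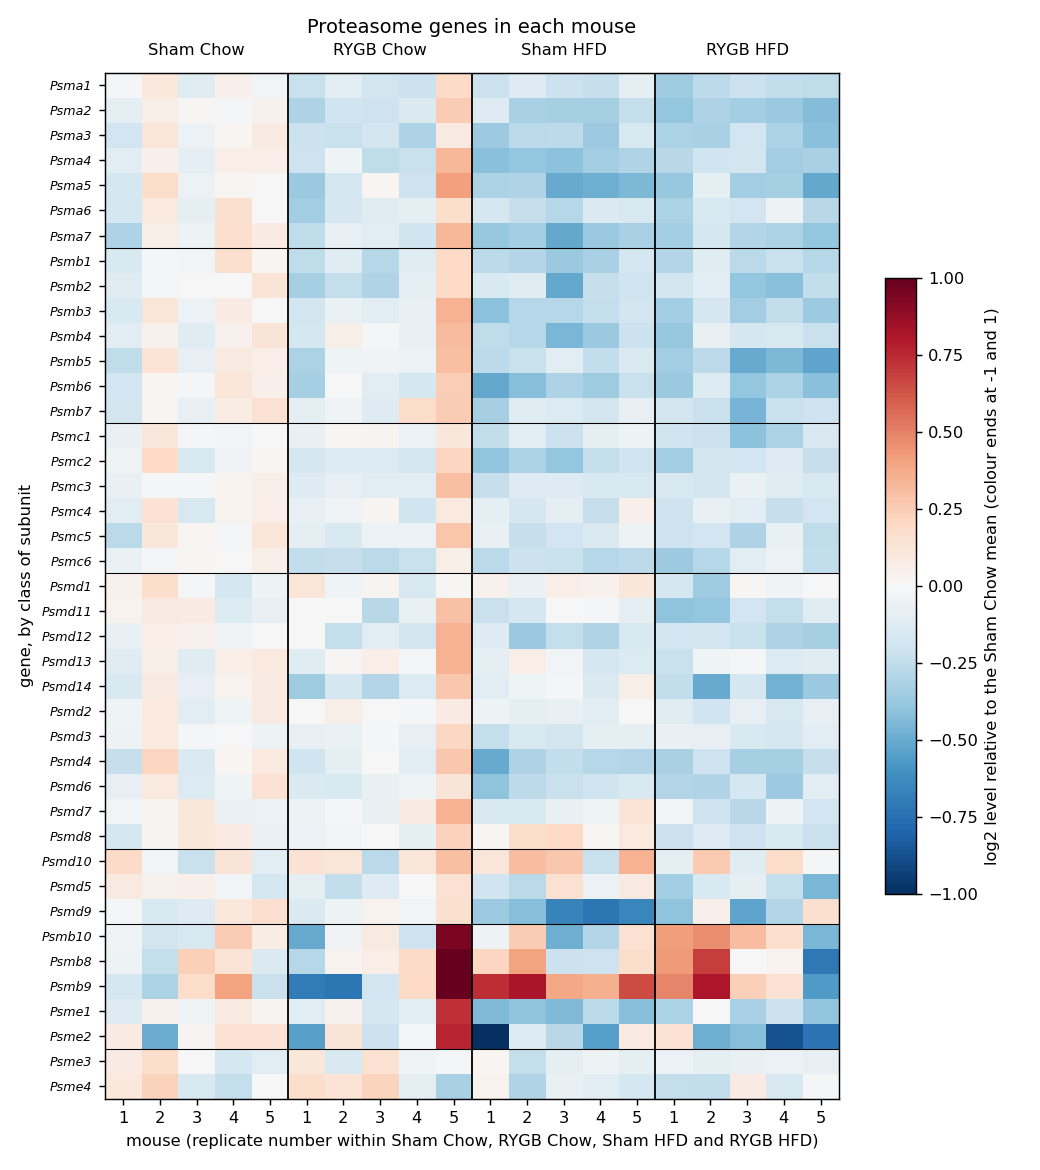
Level of the 41 proteasome genes (rows, by class) in the 20 mice (columns, by group), as log2 of CPM relative to the Sham Chow mean; the colour scale ends at -1 and 1. The core rows are mostly lower (blue) in both HFD groups, and RYGB Chow replicate 5 is higher (red) from the core to the immune subunits.

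High-fat feeding after a sham operation went with lower transcripts of the core. In Sham Chow vs. Sham HFD, 15 of 41 proteasome genes fell and 0 rose at an adjusted p under 0.05 (edgeR's quasi-likelihood test), against 10.7% of all tested genes that fell and 10.9% that rose. The 15 were 9 of the 14 core genes (*Psma2*, *Psma3*, *Psma4*, *Psma5*, *Psma7*, *Psmb1*, *Psmb3*, *Psmb4*, *Psmb6*), 4 of the 17 cap genes (*Psmc2*, *Psmc6*, *Psmd4*, *Psmd6*), the chaperone *Psmd9* and the immune subunit *Psme1*. The falls were small: the median log2 fold change was -0.28 over the core, -0.14 over the cap, -0.18 over all 41 genes and -0.0047 over all tested genes. Before adjustment 23 of the 41 were lower and 0 higher at p under 0.05, against 17.9% of all genes, and 36 had a log2 fold change below 0, against 50.7%. All 5 Sham HFD mice lay below all 5 Sham Chow mice for 17 of the 41 genes, against 8.06% of all genes. Without RYGB Chow replicate 5, which is in neither group but enters the model's estimate of spread, 20 of the 41 fell and *Psmb9* rose. In that fit 11.55% of all tested genes fell and 1462 of 12289 rose.

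*Psma4* (ENSMUSG00000032301, chromosome 9 from 54950790 to 54958030 in GRCm38), an alpha ring subunit, was at 103, 116, 104, 117 and 117 CPM in Sham Chow replicates 1 to 5 and at 83.4, 85.1, 83.8, 87.6 and 90.3 CPM in Sham HFD replicates 1 to 5. The groups did not overlap (log2 fold change -0.37, standard error 0.09, adjusted p = 0.00617). *Psma7*, another alpha subunit, was at 79.4, 103, 95.1, 111 and 104 CPM in Sham Chow and at 75.7, 77.7, 68.97, 76.2 and 78.7 CPM in Sham HFD. Here too every Sham HFD mouse lay below every Sham Chow mouse (log2 fold change -0.38, standard error 0.099, adjusted p = 0.00924). Of the cutting subunits, *Psmb6* fell, from 91.3, 106, 103, 113 and 108 CPM to 72.9, 77.3, 84, 81.3 and 89.1 CPM (log2 fold change -0.36, standard error 0.093, adjusted p = 0.00886). *Psmb5* stood at 62.96, 82.8, 70.99, 80.03 and 78.7 CPM in Sham Chow and at 62.4, 64.2, 69.4, 63.1 and 67.7 CPM in Sham HFD, which did not pass (log2 fold change -0.20, standard error 0.095, adjusted p = 0.136). *Psmb7* did not pass either, with 69.05, 79.7, 74.1, 82.7 and 87.2 CPM in Sham Chow and 62.3, 71.99, 71.5, 68.95 and 74.01 CPM in Sham HFD (log2 fold change -0.17, standard error 0.085, adjusted p = 0.157).

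The gene with the largest fall was *Psmd9* (ENSMUSG00000029440, chromosome 5 from 123169413 to 123250131), a chaperone of the ATPase ring. It was at 48.4, 44.2, 45.05, 52.8 and 55.4 CPM in Sham Chow and at 38.1, 36.4, 30.8, 29.6 and 31.1 CPM in Sham HFD, without overlap (log2 fold change -0.57, standard error 0.12, adjusted p = 0.00192). Its annotated span covers *Hpd* on the opposite strand, a tyrosine catabolism gene with a median of 1828 CPM, with 0 shared exon bases. The *Hpd* log2 fold change in the same contrast was -0.30 (adjusted p = 0.133), and whether counting used strand is not given in the sources used here. Several cap genes had differences near 0 in this contrast. *Psmd8*, a lid subunit, was at 90.5, 104, 111, 108 and 97.2 CPM in Sham Chow and 103, 116, 118, 103 and 109 in Sham HFD (log2 fold change 0.10, adjusted p = 0.312). *Psmd1* and *Psmd2*, the scaffold of the cap's base, had log2 fold changes of 0.041 and -0.061 (adjusted p = 0.742 and 0.461).

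The size of this fall depends on how libraries are scaled. With library size alone in place of TMM factors, the median of all tested genes moved from -0.0047 to 0.12, genes that fell numbered 554 and genes that rose 2279 in place of 1319 and 1337, and 2 proteasome genes (*Psma4*, *Psmd9*) fell while *Psmd8* rose. With an offset for gene length, 2186 genes fell and 1136 rose, and 20 of the 41 fell. At an adjusted p under 0.05, 4 of 10 leukocyte, 6 of 10 Kupffer cell and 6 of 6 stellate cell markers were higher in Sham HFD than in Sham Chow. At the same threshold 5 of 9 hepatocyte markers were lower. Of all tested genes, 10.9% rose and 10.7% fell. The hepatocyte sum ran from 95739 to 112261 CPM in Sham Chow and from 85304 to 98251 CPM in Sham HFD, and its part in the fall was not tested.

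**Figure D2:**
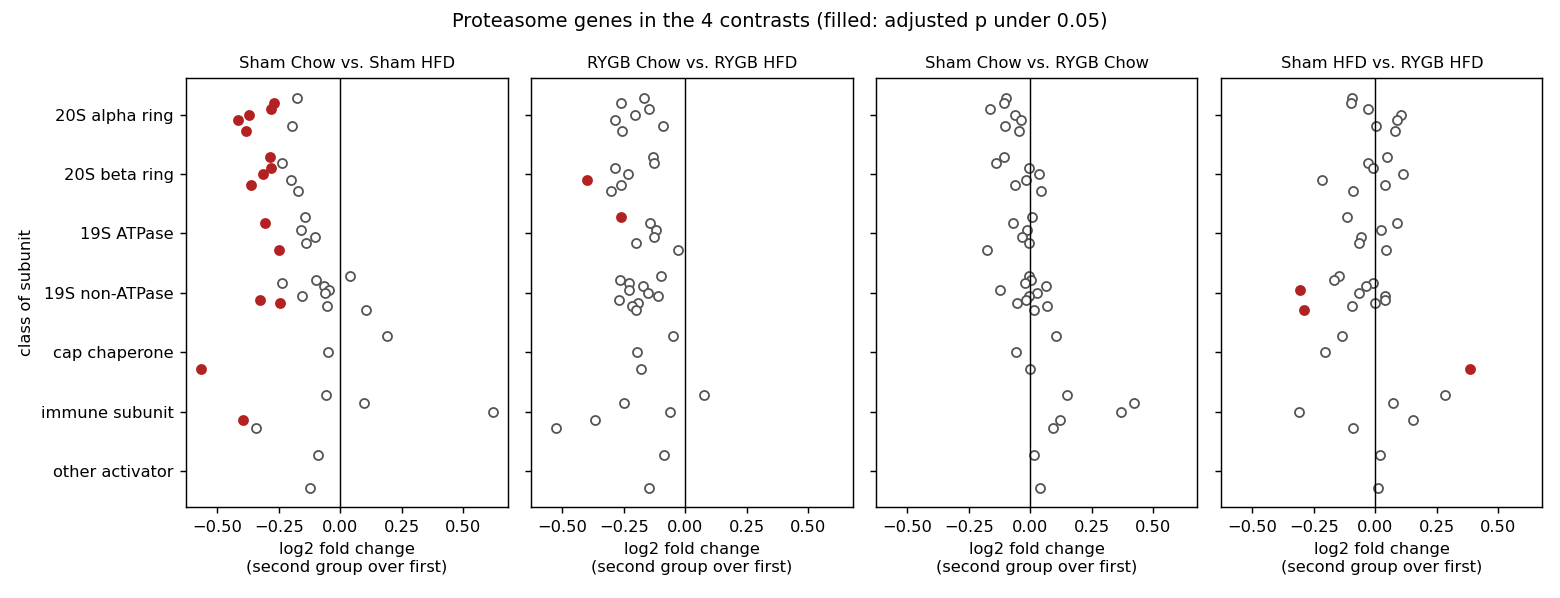
Log2 fold change (second group over first) of each of the 41 proteasome genes in the 4 contrasts, by class; filled points have an adjusted p under 0.05. In Sham Chow vs. Sham HFD 15 points are filled, all left of 0, and in Sham Chow vs. RYGB Chow none is.

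After bypass, the same diet contrast gave a shift of like size with few calls. In RYGB Chow vs. RYGB HFD, 2 of 41 genes fell, *Psmb5* and *Psmc1*, and 0 rose, against 1.65% and 1.99% of all tested genes. The median log2 fold change was -0.20 over the 41 genes and 0.0048 over all genes, 40 of 41 were below 0 (49.1% of all genes), and 24 were lower and 0 higher at an unadjusted p under 0.05 (8.98% of all genes lower). All RYGB HFD mice lay below all RYGB Chow mice for 5 genes, against 2.41% of all genes. *Psmb5* (ENSMUSG00000022193, chromosome 14 from 54614119 to 54618022), which cuts after hydrophobic residues, was at 60.2, 72.7, 73.1, 72.05 and 92.7 CPM in RYGB Chow and at 59.02, 62.5, 52.7, 54.95 and 51.8 CPM in RYGB HFD. The groups overlapped in 1 mouse each, the lowest on chow and the highest on HFD (log2 fold change -0.40, standard error 0.095, adjusted p = 0.0236). *Psmc1* (ENSMUSG00000021178, chromosome 12 from 100110154 to 100123405), an ATPase, was at 104, 111, 112, 106 and 119 CPM in RYGB Chow and at 96.01, 95, 82.7, 88.4 and 98.5 CPM in RYGB HFD, and the groups did not overlap (log2 fold change -0.26, standard error 0.064, adjusted p = 0.0277). In sham mice it stood at 104, 119, 109, 108 and 110.2 CPM on chow and at 92.5, 102, 94.7, 104 and 106 CPM on HFD, which did not pass (log2 fold change -0.14, standard error 0.064, adjusted p = 0.115).

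The 3 core genes next in order of p did not pass in bypassed mice. *Psmb7* was at 73.5, 76.7, 71.8, 89.1 and 93.8 CPM in RYGB Chow and at 68.98, 67.3, 56.7, 67.1 and 67.98 CPM in RYGB HFD, without overlap (log2 fold change -0.30, standard error 0.085, adjusted p = 0.0512). *Psmb3*, a structural beta subunit, was at 66.2, 71.7, 69.4, 71.5 and 95.9 CPM in RYGB Chow and at 59.4, 66.9, 58.98, 63.5 and 58.3 CPM in RYGB HFD (log2 fold change -0.29, standard error 0.087, adjusted p = 0.0697). *Psma2* was at 60.6, 65.4, 65.04, 67.8 and 89.6 CPM in RYGB Chow and at 57.3, 60.6, 59.04, 57.97 and 55.4 CPM in RYGB HFD (log2 fold change -0.26, standard error 0.083, adjusted p = 0.0818). In *Psmb3* and *Psma2* the fifth RYGB Chow mouse stood well above the other 4. Sham mice showed both genes fall, *Psmb3* from 67.5, 81.7, 72.2, 79.5 and 74.98 CPM to 56.6, 61.6, 61.6, 63.5 and 65.99 CPM (log2 fold change -0.28, standard error 0.087, adjusted p = 0.0252) and *Psma2* from 70.2, 78.2, 75.7, 74.03 and 77.2 CPM to 68.6, 59.8, 59.5, 59.5 and 63.6 CPM (log2 fold change -0.27, standard error 0.083, adjusted p = 0.0238). Without RYGB Chow replicate 5, 0 of 41 genes passed in RYGB Chow vs. RYGB HFD, where 1.07% of all genes fell. In that fit 12 were lower at an unadjusted p under 0.05 and 36 were below 0 (shares of all genes not given here). The median was -0.12, against 0.00059 over all genes. The log2 fold changes were then -0.31 for *Psmb5*, -0.24 for *Psmc1*, -0.25 for *Psmb7*, -0.19 for *Psmb3* and -0.16 for *Psma2*, with adjusted p from 0.0556 to 0.172. No proteasome gene passed without RYGB HFD replicate 3 or 4 either, where 1.07% and 0.928% of all genes fell. Without RYGB Chow replicate 1 or 3, 4 passed each time, where 1.44% and 1.58% of all genes fell. DESeq2 called 6, where 2.87% of all genes fell.

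A gene counts as HFD-induced here when an unadjusted p is under 0.05 in both diet contrasts with the same direction. By that definition 14 of 41 proteasome genes were lower and 0 higher, against 3.65% and 3.25% of all tested genes. They were 9 core genes (*Psma1*, *Psma2*, *Psma4*, *Psma5*, *Psma7*, *Psmb3*, *Psmb4*, *Psmb5*, *Psmb6*), 4 cap genes (*Psmc1*, *Psmd4*, *Psmd6*, *Psmd12*) and *Psme1*. Without RYGB Chow replicate 5, 8 were lower, and *Psmb9* then met the definition as higher (log2 fold change 0.62 in sham and 0.61 in bypassed mice). With library size alone there were 7. For these counts, the shares of all tested genes in the same fits are not given here. The study singled out the proteasome among genes lowered by HFD from these same samples, so this count is not independent evidence of its direction. In each mouse, the median log2 level of the 31 core and cap genes relative to the Sham Chow mean lay between -0.11 and 0.097 in Sham Chow, between -0.24 and -0.15 in Sham HFD and between -0.29 and -0.18 in RYGB HFD. In RYGB Chow it lay between -0.17 and -0.073 in 4 mice, between most Sham Chow and most HFD mice, and at 0.26 in replicate 5.

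**Figure D3:**
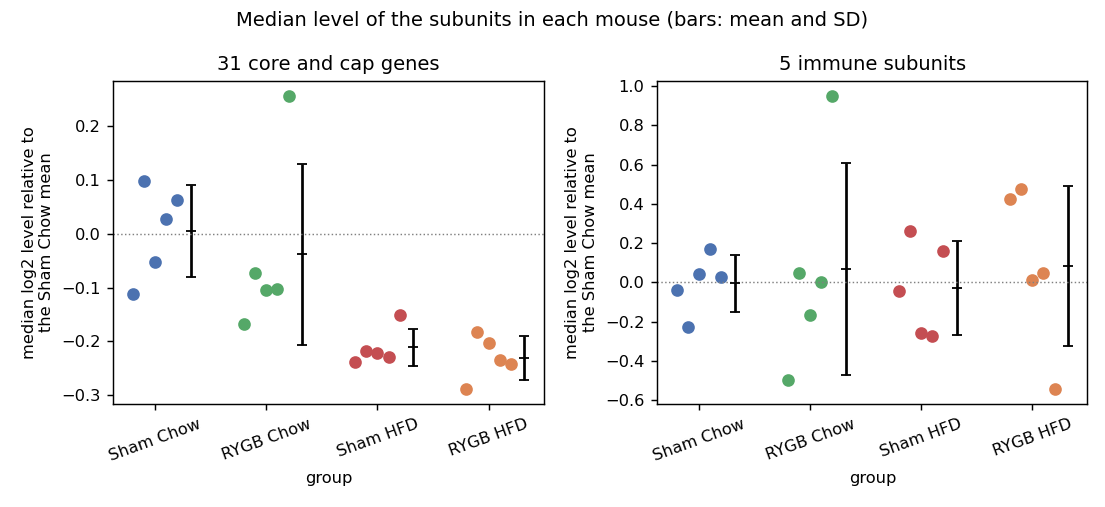
Median log2 level of the 31 core and cap genes (left) and of the 5 immune subunits (right) in each mouse, relative to the Sham Chow mean, with the mean and SD of each group. The core and cap medians of the HFD mice lie between -0.29 and -0.15, and RYGB Chow replicate 5 stands at 0.26 on the left and 0.95 on the right.

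Surgery on chow changed no proteasome gene past the threshold. In Sham Chow vs. RYGB Chow, 0 of 41 passed in edgeR, DESeq2 and limma-voom, against 0.00814% of all genes that fell and 0.0488% that rose in edgeR, and 2 were lower at an unadjusted p under 0.05. These were *Psmc6*, an ATPase, and *Psma3*, an alpha subunit. *Psmc6* was at 93.4, 97.1, 98.7, 98.5 and 102 CPM in Sham Chow and 82.7, 83.3, 81.2, 83.9 and 102 CPM in RYGB Chow (log2 fold change -0.18, standard error 0.07, adjusted p = 0.353). *Psma3* was at 80.2, 99.6, 87.7, 92.7 and 97.2 CPM in Sham Chow and 78.7, 78.3, 80.6, 73.6 and 97.5 CPM in RYGB Chow (log2 fold change -0.16, standard error 0.078, adjusted p = 0.459). In both genes replicate 5 lay within the Sham Chow range and most of the other RYGB Chow mice below it. *Psmb2*, a beta subunit, was at 47.4, 50.9, 51.5, 51.9 and 56.7 CPM in Sham Chow and 40.96, 43.8, 41.9, 48.4 and 59.3 CPM in RYGB Chow (log2 fold change -0.14, standard error 0.098, adjusted p = 0.642). Without RYGB Chow replicate 5, again 0 proteasome genes passed, where 0.0488% of all genes fell. In that fit 36 of 41 were below 0 in place of 25, and 10 were lower at an unadjusted p under 0.05 in place of 2. For these counts, the shares of all genes in either fit are not given here. The median moved from -0.0068 to -0.11 without this mouse, and was 0.0022 over all genes. *Psmc6* was then at a log2 fold change of -0.24, *Psma3* at -0.23 and *Psmb2* at -0.24 (adjusted p = 0.123, 0.176 and 0.217).

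Surgery on HFD went with a change past the threshold in 3 genes, of which 2 encode cap subunits and 1 a cap chaperone. In Sham HFD vs. RYGB HFD, *Psmd8* and *Psmd14* fell and *Psmd9* rose, against 7.9% of all genes that fell and 8.54% that rose, and the median log2 fold change of the 41 was -0.011 (all genes 0.0095). *Psmd8* (ENSMUSG00000030591, chromosome 7 from 29174188 to 29180701) went from 103, 116, 118, 103 and 109 CPM in Sham HFD to 87.8, 93.3, 88.3, 91.9 and 87.6 CPM in RYGB HFD, without overlap (log2 fold change -0.29, standard error 0.072, adjusted p = 0.00829). *Psmd14* (ENSMUSG00000026914, chromosome 2 from 61711694 to 61800376), the subunit that removes ubiquitin chains, went from 43.2, 45.1, 45.95, 42 and 48.5 CPM in Sham HFD to 39.1, 32.6, 41.2, 33.4 and 35.8 CPM in RYGB HFD, without overlap (log2 fold change -0.30, standard error 0.10, adjusted p = 0.0415). *Psmd9* was at 37.05, 50.9, 33.9, 40.1 and 55.1 CPM in RYGB HFD, with 3 mice above and 2 among the Sham HFD values (log2 fold change 0.39, standard error 0.12, adjusted p = 0.0268). In this contrast 5 of 9 hepatocyte markers rose and 2 fell past the same threshold, and 3 of 6 stellate cell markers fell. It and Sham Chow vs. Sham HFD share the 5 Sham HFD mice. *Psmd8* passed with each mouse left out in turn, *Psmd14* in 14 and *Psmd9* in 15 of 20 such fits, and 1 of the 3 genes passed without Sham HFD replicate 3 or 5 or without RYGB HFD replicate 2 or 5. With library size alone, 1497 genes fell and 542 rose in place of 971 and 1050, and 5 proteasome genes fell (*Psmb5*, *Psmd5*, *Psmd8*, *Psmd11*, *Psmd14*) and 0 rose.

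The diet effect was not shown to differ between sham and bypassed mice for any proteasome gene. The surgery by diet interaction passed for 0 of 41 genes in edgeR and limma-voom, against 5.06% of all genes in edgeR. At an unadjusted p under 0.05 it held for 3 in edgeR (share of all genes not given here). In DESeq2 it passed for *Psmd8*. The edgeR value of *Psmd8* was -0.30 on the log2 scale (standard error 0.10, adjusted p = 0.0869), and -0.25 without RYGB Chow replicate 5 (adjusted p = 0.115). At an unadjusted p under 0.05, 0 of the 41 moved one way with surgery on both diets, against 1.73% of all genes that were lower.

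Of the 5 immune subunits, *Psme1* fell in Sham HFD, and no other passed in any contrast. *Psme1* (ENSMUSG00000022216, chromosome 14 from 55578123 to 55581529), the alpha subunit of PA28, was at 71.1, 79.95, 75.6, 82.7 and 79.2 CPM in Sham Chow and at 57.05, 58.8, 57.02, 64.2 and 57.8 CPM in Sham HFD, without overlap (log2 fold change -0.40, standard error 0.13, adjusted p = 0.0330). It passed in 12 of 20 fits that left out 1 mouse, and was at 72.1, 80.2, 69.2, 71.95 and 129 CPM in RYGB Chow and 62.3, 77.6, 62.1, 66.8 and 59.1 CPM in RYGB HFD. *Psme2* (ENSMUSG00000079197, chromosome 14 from 55587441 to 55591113), its partner, was at 40.5, 26.9, 38.9, 42.5 and 42.3 CPM in Sham Chow and 17.2, 34.8, 31.5, 25.9 and 40.6 CPM in Sham HFD (log2 fold change -0.34, standard error 0.24, adjusted p = 0.308). On the bypass side it was at 26.04, 41.9, 32.8, 37.8 and 64.98 CPM in RYGB Chow and 42.3, 27.1, 28.2, 20.7 and 22.7 CPM in RYGB HFD (log2 fold change -0.53, standard error 0.24, adjusted p = 0.234). That log2 fold change without RYGB Chow replicate 5 was -0.30 (adjusted p = 0.537). Its near copy by name, *Psme2b*, was counted separately at 10.4 to 24.7 CPM, and reads that the 2 genes share would make both values uncertain.

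*Psmb9* (ENSMUSG00000096727, chromosome 17 from 34181987 to 34187764) was the immune subunit with the largest difference between the sham groups. It was at 12.8, 11.5, 16.5, 19.2 and 12.3 CPM in Sham Chow and at 24.4, 25.8, 19.01, 18.6 and 23.02 CPM in Sham HFD, where 3 mice lay above all Sham Chow mice and 2 just below the highest of them, and the difference did not pass (log2 fold change 0.62, standard error 0.35, adjusted p = 0.214). It passed in a model of these groups alone (adjusted p = 0.00973) and without RYGB Chow replicate 5 (adjusted p = 0.0460), and in no other setting, the highest adjusted p being 0.325. In RYGB Chow it was at 8.71, 8.56, 12.6, 16.7 and 46.8 CPM and in RYGB HFD at 20.5, 25.7, 17.1, 16.1 and 9.57 CPM. Surgery on chow gave it a log2 fold change of 0.37 (adjusted p = 0.761), which turned to -0.30 without RYGB Chow replicate 5. In RYGB Chow vs. RYGB HFD its log2 fold change was -0.061, and 0.61 without that mouse (adjusted p = 0.188). *Psmb9* shares 212 exon bases with *Tap1*, which lies on the opposite strand and had a log2 fold change of 0.42 in Sham Chow vs. Sham HFD (adjusted p = 0.177).

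*Psmb8* (ENSMUSG00000024338, chromosome 17 from 34197721 to 34201454) was at 15.8, 13.8, 19.4, 18.1 and 14.7 CPM in Sham Chow, 19.1, 21.8, 14.1, 14.1 and 18.5 CPM in Sham HFD and 22.1, 26.7, 16.4, 16.8 and 9.77 CPM in RYGB HFD. In RYGB Chow it was at 13.3, 16.8, 17.2, 18.8 and 43.5 CPM, with replicate 5 apart from the others. *Psmb10* (ENSMUSG00000031897, chromosome 8 from 105935735 to 105938444) was at 26.3, 23.7, 24.1, 32.1 and 28.4 CPM in Sham Chow, 18.8, 26.3, 28.6, 23.3 and 52.1 CPM in RYGB Chow and 25.97, 32.1, 19.1, 21.9 and 29.9 CPM in Sham HFD. In RYGB HFD it was at 36.1, 37.4, 33.4, 30.3 and 19.5 CPM, and its values in the 4 groups overlapped. The smallest adjusted p of either gene in the 4 contrasts was 0.410. Without RYGB Chow replicate 5, the log2 fold change of *Psmb8* went from 0.42 to 0.017 in Sham Chow vs. RYGB Chow. In RYGB Chow vs. RYGB HFD it went from -0.25 to 0.15. That of *Psmb10* went from 0.15 to -0.15 and from 0.075 to 0.37 in the same contrasts, and neither gene passed.

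**Figure D4:**
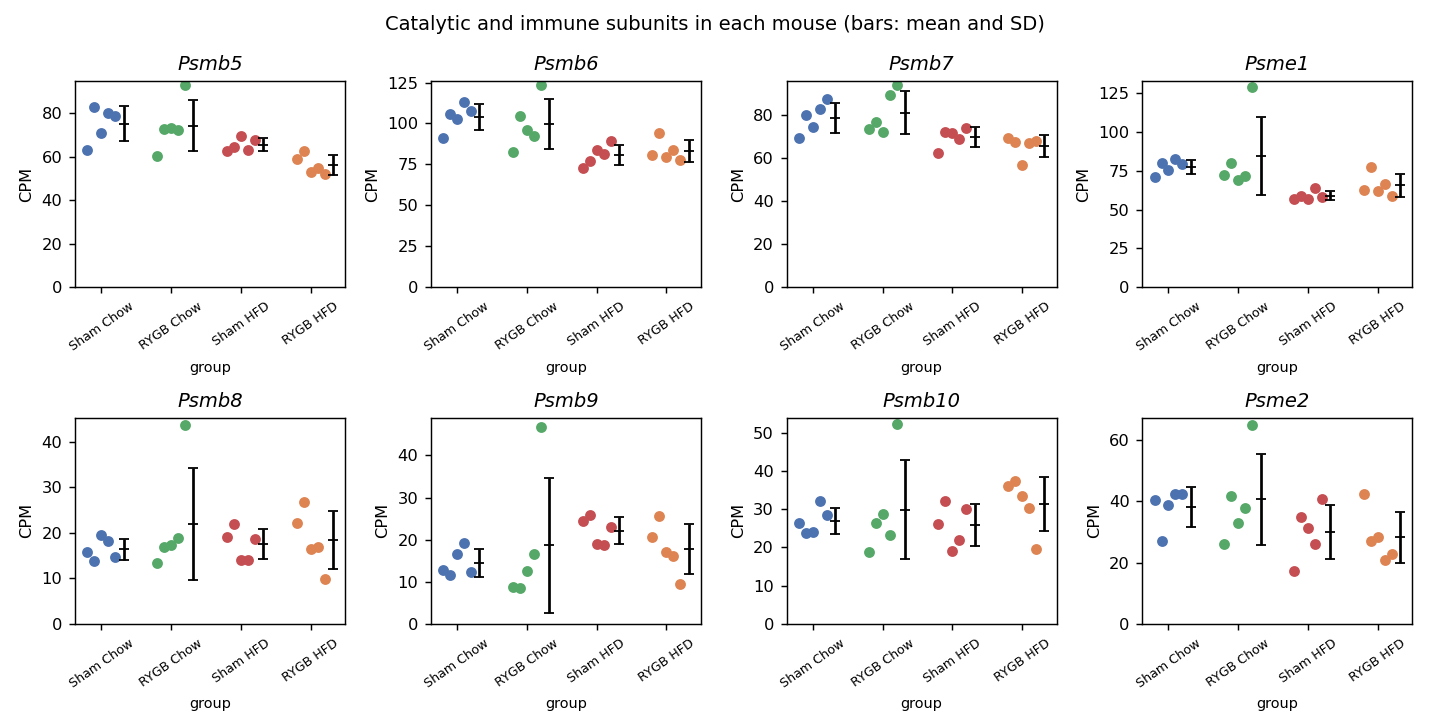
CPM of the cutting subunits *Psmb5*, *Psmb6* and *Psmb7* and of the 5 immune subunits in each mouse, with the mean and SD of each group (n = 5). *Psmb6* and *Psme1* lie lower in Sham HFD than in Sham Chow, the mean of *Psmb9* is higher there without passing the test, and RYGB Chow replicate 5 is the highest RYGB Chow point in all 8 panels.

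The share of an immune subunit relative to the subunit it replaces was read as a ratio of counts within each library, which does not depend on how libraries are scaled. The ratio of *Psmb9* to *Psmb6* was 0.140, 0.109, 0.161, 0.170 and 0.114 in Sham Chow and 0.335, 0.333, 0.226, 0.229 and 0.259 in Sham HFD, without overlap. The difference was 0.99 on the log2 scale (two-sided exact permutation test, p = 0.00794, the smallest that 5 against 5 mice can give, and 0.0952 after adjustment over 12 comparisons). In RYGB Chow this ratio was 0.106, 0.0822, 0.131, 0.181 and 0.379, and in RYGB HFD 0.255, 0.273, 0.216, 0.193 and 0.123. The RYGB HFD values lay among those of the other groups. *Psmb8* to *Psmb5* was 0.251, 0.167, 0.274, 0.226 and 0.188 in Sham Chow, 0.222, 0.231, 0.235, 0.261 and 0.470 in RYGB Chow, 0.306, 0.340, 0.203, 0.224 and 0.273 in Sham HFD and 0.375, 0.428, 0.311, 0.306 and 0.189 in RYGB HFD. *Psmb10* to *Psmb7* was 0.381, 0.298, 0.325, 0.389 and 0.326 in Sham Chow, 0.256, 0.343, 0.399, 0.261 and 0.556 in RYGB Chow, 0.417, 0.447, 0.267, 0.317 and 0.404 in Sham HFD and 0.523, 0.556, 0.589, 0.453 and 0.287 in RYGB HFD. None of the other 11 comparisons had a p under 0.111, and their adjusted p ran from 0.476 to 0.921. The log2 difference of *Psmb9* to *Psmb6* without RYGB Chow replicate 5 went from 0.14 to -0.19 in Sham Chow vs. RYGB Chow and from 0.44 to 0.77 in RYGB Chow vs. RYGB HFD.

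**Figure D5:**
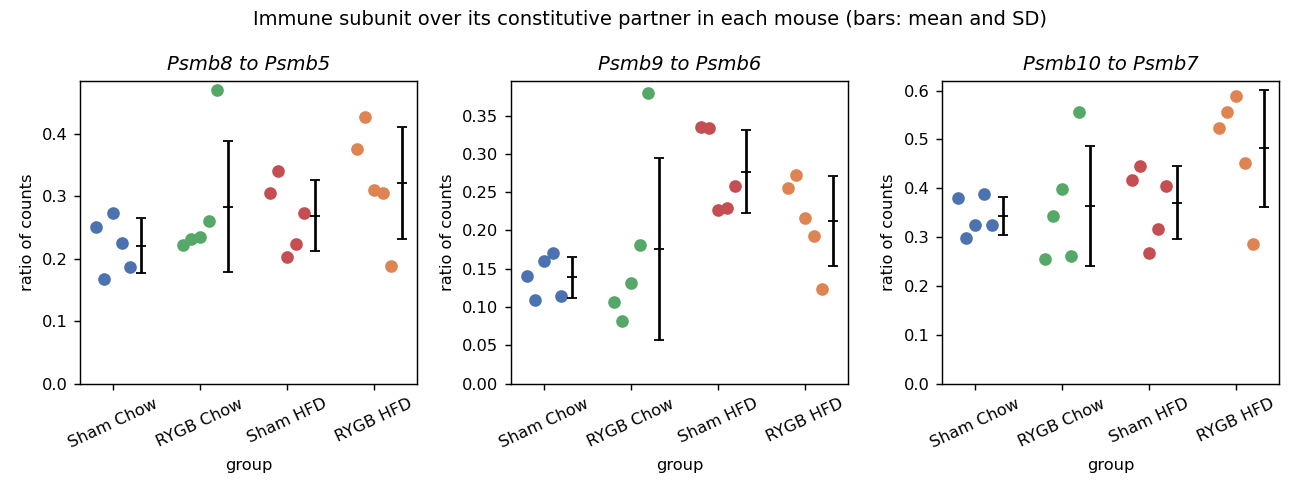
Ratio of counts of each immune beta subunit to the constitutive subunit it replaces in each mouse, with the mean and SD of each group (n = 5). The *Psmb9* to *Psmb6* ratio is 0.139 on average in Sham Chow and 0.277 in Sham HFD, with no overlap, whereas the other ratios overlap between all groups. The difference did not pass after adjustment over 12 comparisons (exact permutation test, adjusted p = 0.0952).

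Within groups, the core genes varied together across mice. The median Pearson r of log2 levels, after the group means were removed, was 0.74 over the 91 pairs of core genes, 0.50 over the 136 pairs of cap genes and 0.57 over the 238 pairs of a core and a cap gene, in 20 mice, and -0.0013 over pairs of all tested genes. *Psmb8*, *Psmb9* and *Psmb10* had a median r of 0.90 with each other and of 0.55 with core and cap genes. All genes of a pair share their libraries and the scaling of those libraries. Without RYGB Chow replicate 5 the medians were 0.52 over the core, 0.19 over the cap, 0.23 between core and cap, 0.82 among the 3 immune beta subunits and 0.11 between these and the core and cap. With all 20 mice, the genes least like the core and cap were *Psme4*, with a median r of -0.40, *Psme3*, with -0.17, and *Psmd1*, with 0.00068. For *Psme3* and *Psme4* together, the median r with core and cap was -0.29, and -0.065 without RYGB Chow replicate 5. Against the summed leukocyte markers, again with all 20 mice, *Psmb8*, *Psmb9*, *Psmb10* and *Psme2* had r between -0.033 and 0.023 within groups, and *Psme1* -0.23. RYGB Chow replicate 5 was the highest of its group in all 5 of these genes and in T and NK cell and B cell markers. Its leukocyte sum, in contrast, lay within the group's range. Values of r without it are not given here.

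The genes around the proteasome were read from lists of assembly factors, ubiquitin receptors and ubiquitin genes. *Adrm1*, the ubiquitin receptor of the cap, fell with HFD in both diet contrasts (sham mice: log2 fold change -0.39, standard error 0.079, adjusted p = 0.00158; bypassed mice: log2 fold change -0.41, standard error 0.079, adjusted p = 0.00507). *Uchl5*, the deubiquitinase that Adrm1 holds, fell in RYGB Chow vs. RYGB HFD (log2 fold change -0.32, standard error 0.08, adjusted p = 0.0313). Together they were 2 of 10 tested receptors, deubiquitinases and shuttles, where 1.65% of all genes fell, and in Sham Chow vs. Sham HFD *Adrm1* was 1 of 10, near the 10.7% of all genes that fell. Without RYGB Chow replicate 5, *Adrm1* was at -0.33 in bypassed mice (adjusted p = 0.0110) and *Uchl5*, at -0.31, did not pass (adjusted p = 0.0556). *Nfe2l2*, the transcription factor of the antioxidant response, rose in Sham HFD (log2 fold change 0.47, standard error 0.12, adjusted p = 0.00833) and fell in Sham HFD vs. RYGB HFD (log2 fold change -0.35, standard error 0.12, adjusted p = 0.0467). *Nfe2l1*, which drives proteasome genes when the proteasome is blocked, fell in the latter contrast too (log2 fold change -0.41, standard error 0.11, adjusted p = 0.0122), and stood at 146 ± 19.4 CPM (SD, n = 5) in Sham Chow and 177 ± 16.2 CPM in Sham HFD, where it did not pass (adjusted p = 0.0742). They were the assembly and regulation genes past the threshold, of 11 tested. In Sham HFD 1 of the 11 rose, where 10.9% of all genes rose. In Sham HFD vs. RYGB HFD 2 fell, where 7.9% of all genes fell. Without RYGB Chow replicate 5, *Nfe2l1* passed for the surgery by diet interaction (-0.57 on the log2 scale, adjusted p = 0.0345). With all mice 0 of the 11 did. Of 9 ubiquitin genes, E1 enzymes and Vcp cofactors, 3 fell in Sham HFD, where 10.7% of all genes fell, among them *Ufd1*, a cofactor of Vcp (log2 fold change -0.28, standard error 0.081, adjusted p = 0.0190).

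Of the 20 interferon and MHC class I antigen presentation genes, 1 passed in Sham Chow vs. Sham HFD, *Gbp3*, an interferon-induced GTPase (log2 fold change 1.10, standard error 0.34, adjusted p = 0.0250), where 10.9% of all genes rose, and no other contrast had one past the threshold. The median log2 fold change of the 20 was 0.23 in Sham Chow vs. Sham HFD, 0.24 in Sham Chow vs. RYGB Chow, -0.065 in Sham HFD vs. RYGB HFD and -0.0026 in RYGB Chow vs. RYGB HFD. These medians without RYGB Chow replicate 5 were 0.23, -0.029, -0.069 and 0.18. In that fit 6 of the 20 genes rose in Sham Chow vs. Sham HFD, where 1462 of all 12289 genes rose. In Sham HFD vs. RYGB HFD 2 of the 20 fell, where 8.74% of all genes fell.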

How the data were processed

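Poly(A)-selected liver RNA of 20 mice was sequenced from strand-specific libraries. The authors trimmed reads with Trimmomatic 0.36, aligned them to mm10 with HISAT2 2.1.0 and deposited raw counts per Ensembl gene from featureCounts 1.5.0-p3. The annotation release, strand setting and handling of multi-mapped reads are not given in the sources used here. Symbols and positions came from GENCODE M21 (GRCm38), promoters from RefSeq (GRCm38.p6).

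Genes at a CPM of 2 or more in 3 or more mice (12289) were fitted with edgeR 4.0.16 (R 4.3.3, quasi-likelihood, TMM factors) in one model of the groups, and p-values, all two-sided, were adjusted by Benjamini-Hochberg over these genes, with a threshold of 0.05. CPM values are TMM-normalized, except at the filter and in marker sums, which use library size alone. Correlations used log2 of CPM + 0.5. Ratios of counts, with 0.5 added to both, were compared by exact permutation over mice. Total counts were 14604854 to 22537498 per mouse, and the least abundant gene that passed the rule (*Psmd10*) had 3508 counts in all. No libraries were identical (0 pairs). Nothing says which mice share a cage or day, and p-values measure the spread between the mice sampled. Counts are PCR reads without molecular identifiers.

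Values per mouse are given for the immune subunits, *Psmb5* to *Psmb7* and, in each contrast, the 3 other members with the smallest p. From each pathway list and contrast, the 2 genes with the smallest p among those past the threshold are named, except for a gene that is not reported here. The members and gene lists were chosen with earlier results of these data known. Alternatives were DESeq2 1.42.0, library size alone, RLE factors, limma-voom (limma 3.58.1), no filter, a CPM of 5, only the groups compared, a replicate block, a length offset (spline, 5 degrees of freedom), block and offset together, and each mouse left out. Leaving RYGB Chow replicate 5 out of the pathway lists was added after seeing the data. The fits were tested on simulated data. Tables and plots were made in Python 3.11.15 (pandas 2.3.3, numpy 2.4.6, scipy 1.17.1, matplotlib 3.10.9).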

Additional observations from a re-analysis of the deposited data

Results flagged for a closer look

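Of 88 sets of 5 mice checked for a mouse apart from the rest, 12 had one. Chance gives about 1 in 20 for separate sets, but these sets cover genes that vary together in the same mice. RYGB Chow replicate 5 accounted for 9 of the 12, all on the high side. Its CPM was 43.5 for *Psmb8*, 46.8 for *Psmb9*, 129 for *Psme1*, 102 for *Psmc6*, 120.1 for *Psmd8*, 124 for *Psma7*, 95.9 for *Psmb3* and 89.6 for *Psma2*, and its ratio of *Psmb8* to *Psmb5* counts was 0.470. The gap to the next mouse was in each case more than 0.71 of the group's range. Elsewhere, Sham HFD replicate 4 stood high for *Psme1* at 64.2 CPM, Sham Chow replicate 2 low for *Psme2* at 26.9 CPM and RYGB HFD replicate 3 low for *Psmb7* at 56.7 CPM. The role of interferon and lymphocyte transcripts in RYGB Chow replicate 5, whose values stand in the report, was not tested.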

How the results depend on the processing

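With library size alone, the number of members that passed was 3 in Sham Chow vs. Sham HFD (median -0.049), 5 in Sham HFD vs. RYGB HFD (median -0.10) and 1 for the interaction, and 7 met the HFD-induced definition. DESeq2 called 6 members in RYGB Chow vs. RYGB HFD, where 2.87% of all genes fell, and 1 for the interaction. Without a filter the former contrast had 1, where 0.553% of all genes fell. With its own groups only it had 0, where 0.732% of all genes fell. With each mouse left out in turn, members that passed ran from 12 to 21 in Sham Chow vs. Sham HFD and from 0 to 4 in RYGB Chow vs. RYGB HFD. They ran from 1 to 3 in Sham HFD vs. RYGB HFD, and the HFD-induced members that were lower from 8 to 16. For the HFD-induced counts in these other settings, the shares of all tested genes are not given here. The median in Sham HFD vs. RYGB HFD ran from -0.051 to 0.011 and *Psmb9* in Sham Chow vs. RYGB Chow from -0.30 to 0.55. The log2 difference of the *Psmb9* to *Psmb6* ratio in Sham Chow vs. Sham HFD ran from 0.91 to 1.07. Same-numbered mice of different groups correlated between -0.257 and 0.165 (median -0.0143), so the numbers do not pair them; with the replicate block 15, 3, 3 and 0 members passed in Sham Chow vs. Sham HFD, RYGB Chow vs. RYGB HFD, Sham HFD vs. RYGB HFD and Sham Chow vs. RYGB Chow, the members called without the block among them. The cause of these changes was not tested. Genes that overlap on the opposite strand, such as *Psmb9* and *Tap1*, or near copies, such as *Psme2* and *Psme2b*, may share reads.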
